A study of Mus musculus with 12 samples.

Results

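Distal regions that were called as open in asynchronous cells alone were defined from ATAC-seq peak lists of mouse embryonic stem cells (ESCs). Peaks of all 12 libraries that overlapped or touched were merged into 231395 regions on chromosomes 1 to 19 and X. A region was kept when it held a peak in all 4 asynchronous libraries, held none in the 8 libraries of mitotic cells and sorted mitotic chromosomes, and lay more than 1 kb from every annotated transcript start of a protein-coding gene. This gave 1864 regions, 30.7% of the 6078 distal regions that were called in all 4 asynchronous libraries. The regions were therefore chosen by their calls in the 3 preparations, and differences between preparations at these regions describe the choice and were not tested.

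WT and Suv39h dn ESCs were compared, the latter being double null for Suv39h1 and Suv39h2, which methylate histone H3 at lysine 9. Both were taken as asynchronous cultures without arrest, as mitotic cells collected by shake-off after 6 h in 0.1 µg/ml demecolcine, which blocks spindle assembly, and as metaphase chromosomes released from cells arrested in the same way and purified by flow cytometry. All cells were grown in serum with leukaemia inhibitory factor. There were 2 libraries for each of the 6 groups, each genotype was represented by 1 line, and the labels do not say whether the 2 libraries came from separate cultures, so the p-values measure only the spread between these libraries.

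In ATAC-seq, the Tn5 transposase cuts exposed DNA, and peaks mark regulatory elements where transcription factors displace nucleosomes. Distal peaks in ESCs include enhancers bound by pluripotency factors such as Oct4, Sox2, Esrrb and Klf proteins, and sites of CTCF, which organises chromatin loops. When cells enter mitosis chromosomes condense, transcription stops and many factors leave the DNA, while a subset of elements and factors stay accessible or bound, a property known as mitotic bookmarking. Suv39h enzymes deposit H3K9 trimethylation, mainly at pericentric heterochromatin and at repeats.

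The sequences that follow show 8 of the asynchronous-only regions, beside the pluripotency genes Pou5f1, Dppa3, Esrrb and Zfp42, in Tet2, at high peaks nearest to Nr2f1 and Emc2 and at a large genotype difference nearest to Amot, so that the letters searched for can be seen in place. Each is the mm10 reference over 75 bp to each side of the peak summit, 151 bp in all, in lower case with every match to a searched motif in capitals. The capitals mark an Oct4-Sox2 motif in the region by Pou5f1, octamers by Dppa3, a Klf and an Esrrb motif by Esrrb, a CTCF motif by Zfp42, Klf motifs by Tet2 and Nr2f1, a Sox motif by Emc2, and an AP-1 and a Tead motif by Amot.
Pou5f1, chr17:35503981-35504131, plus strand: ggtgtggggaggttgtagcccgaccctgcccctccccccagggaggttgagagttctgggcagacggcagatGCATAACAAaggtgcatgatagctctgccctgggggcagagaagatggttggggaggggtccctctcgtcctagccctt
Dppa3, chr6:122624630-122624780, plus strand: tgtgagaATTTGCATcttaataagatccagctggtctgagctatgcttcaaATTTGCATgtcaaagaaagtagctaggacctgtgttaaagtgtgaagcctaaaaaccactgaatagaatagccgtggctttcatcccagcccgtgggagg
Esrrb, chr12:86501590-86501740, plus strand: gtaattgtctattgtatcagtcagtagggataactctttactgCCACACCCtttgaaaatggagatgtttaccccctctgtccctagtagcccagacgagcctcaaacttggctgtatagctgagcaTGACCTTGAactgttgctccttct
Zfp42, chr8:43251761-43251911, plus strand: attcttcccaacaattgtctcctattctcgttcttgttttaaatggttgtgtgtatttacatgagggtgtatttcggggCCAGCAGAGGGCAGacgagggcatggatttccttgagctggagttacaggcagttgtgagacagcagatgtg
Tet2, chr3:133534250-133534400, plus strand: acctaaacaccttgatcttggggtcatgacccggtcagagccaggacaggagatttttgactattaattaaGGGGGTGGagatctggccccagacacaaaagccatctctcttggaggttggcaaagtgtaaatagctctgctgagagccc
Nr2f1, chr13:78163118-78163268, plus strand: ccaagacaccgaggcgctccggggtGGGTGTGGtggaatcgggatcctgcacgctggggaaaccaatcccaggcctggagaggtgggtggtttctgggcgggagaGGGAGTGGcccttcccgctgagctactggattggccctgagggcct
Emc2, chr15:43529974-43530124, plus strand: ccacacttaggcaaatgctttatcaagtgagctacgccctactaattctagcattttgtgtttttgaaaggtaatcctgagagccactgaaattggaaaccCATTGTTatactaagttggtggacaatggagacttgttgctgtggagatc
Amot, chrX:146012048-146012198, plus strand: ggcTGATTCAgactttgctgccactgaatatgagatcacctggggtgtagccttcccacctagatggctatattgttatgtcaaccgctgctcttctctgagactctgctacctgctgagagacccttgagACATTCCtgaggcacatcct

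The peaks of the asynchronous-only regions were low beside those of distal regions also called in mitotic cells, but not among all peaks. Their median fold lay above 48.3% and 71.4% of all peaks in the 2 WT asynchronous libraries. In the 2 Suv39h dn asynchronous libraries it lay above 49.9% and 81.3%. The deposited fold enrichment, the fragment pileup at the summit over the background of the peak caller, had a median over the 1864 regions of 5.15 and 7.66 in the 2 WT libraries and of 5.12 and 9.20 in the 2 Suv39h dn libraries. From fold and p-value the count of fragments at a summit can be worked out, and the medians were 5 and 10 fragments in WT against 5 and 13 in Suv39h dn. In both genotypes the library numbered 2 was the deeper one, with a background of 0.306 and 0.304 fragments per base against 0.149 and 0.172. Of the 1864 regions, 199 and 186 had a −log10 q under 2 in the shallower WT and Suv39h dn libraries, but 4 and 3 in the deeper ones. A q-value at or under 1e-05 in all 4 asynchronous libraries was reached by 191 regions, 10.2% of them.

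**Figure D1:**
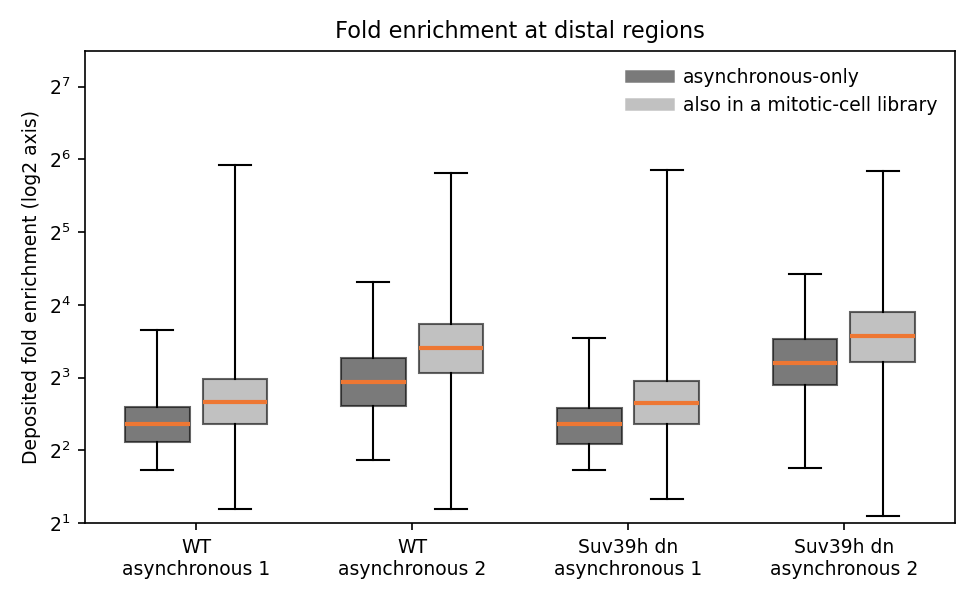
Deposited fold enrichment (log2 axis) in each asynchronous library at asynchronous-only distal regions and at distal regions that also held a peak in a mitotic-cell library; boxes span the quartiles, orange lines are medians and whiskers reach the lowest and highest region. The asynchronous-only medians of 5.15, 7.66, 5.12 and 9.20 lie under the 6.36, 10.6, 6.30 and 11.9 of the other regions.

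The 4028 distal regions that were called in all 4 asynchronous libraries and in at least 1 mitotic-cell library were higher in the same libraries, with medians of 6.36 and 10.6 in WT against 6.30 and 11.9 in Suv39h dn. The geometric mean fold over the 4 libraries had a median of 6.57 in the asynchronous-only regions, with a range of 4.14 to 12.5, and of 8.31 in the regions also called in mitotic cells. Among all 6078 distal regions ordered by that fold, 57.4% of the lowest quintile were asynchronous-only, then 42.6%, 31.7%, 16.5% and, in the highest quintile, 5.18%. The share with a peak in a mitotic-cell library ran the other way, from 36.1% to 94.4%. The share called on sorted chromosomes stayed between 13.1% and 16.6% in the 4 lower quintiles and was 32.6% in the highest.

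**Figure D2:**
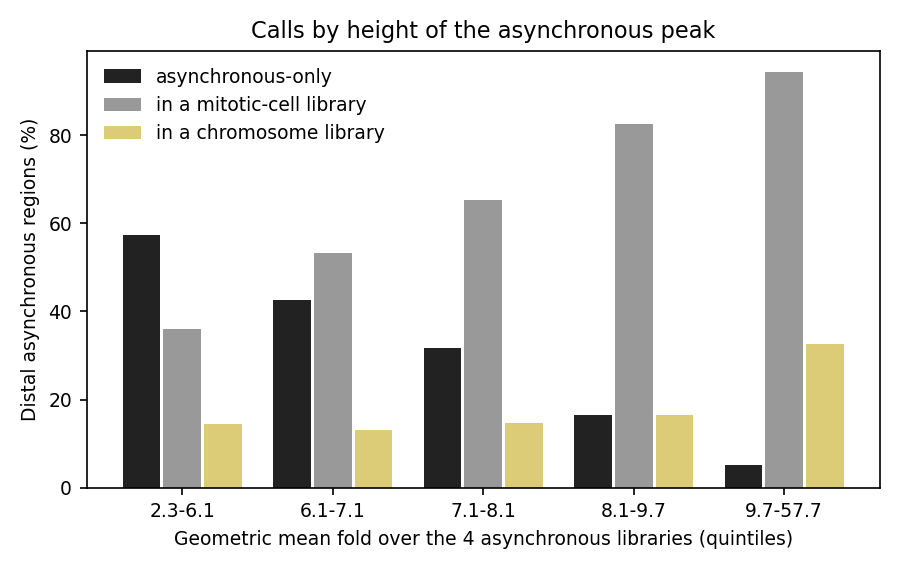
Percent of the 6078 distal asynchronous regions, in quintiles of the geometric mean fold over the 4 asynchronous libraries, that were asynchronous-only, held a peak in at least 1 mitotic-cell library or held a peak in at least 1 sorted-chromosome library; a region can be in both of the latter. The asynchronous-only share falls from 57.4% in the lowest quintile to 5.18% in the highest.

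The calls behind the choice were uneven between libraries. WT mitotic cells held a peak in 1400 (23.0%) and 2922 (48.1%) of the 6078 distal regions, and Suv39h dn mitotic cells in 481 (7.91%) and 2817 (46.3%). Sorted chromosomes held one in 553 and 745 regions in WT and in 657 and 627 in Suv39h dn, between 9.10% and 12.3%. The libraries of the 2 genotypes overlapped in mitotic cells and on sorted chromosomes. The first Suv39h dn mitotic library stood apart with 1729 peaks, against 6471 to 14288 in the other mitotic-cell libraries, and it held a peak in 12.6% of the 4349 promoter regions that were called in all 4 asynchronous libraries, against 48.5% to 75.2% in the other 3. Leaving that library out changed the number of asynchronous-only regions from 1864 to 1887.

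Regions just outside the choice, with a peak in 1 of the 8 other libraries, numbered 1647, of which 743 were called in the second WT mitotic library and 663 in the second Suv39h dn mitotic library. Their median fold was 7.41 against 6.57 in the asynchronous-only regions, and 217 regions with a peak in all 8 had a median of 16.7. At the distance limit, the 7 asynchronous-only regions nearest to a start, at most 100 bp beyond 1 kb, had a median fold of 6.64, and the 7 that missed the limit by at most 100 bp and were counted as promoters had one of 6.93. The number of regions depended on the calls: it was 611 at a q-value at or under 1e-05 in all libraries, 1069 when a peak had to cover at least 50% of a region, 4850 without the first WT asynchronous library and 4214 without the first Suv39h dn one. Without both mitotic-cell libraries numbered 2, an alternative chosen after seeing the data, it was 4047.

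**Figure D3:**
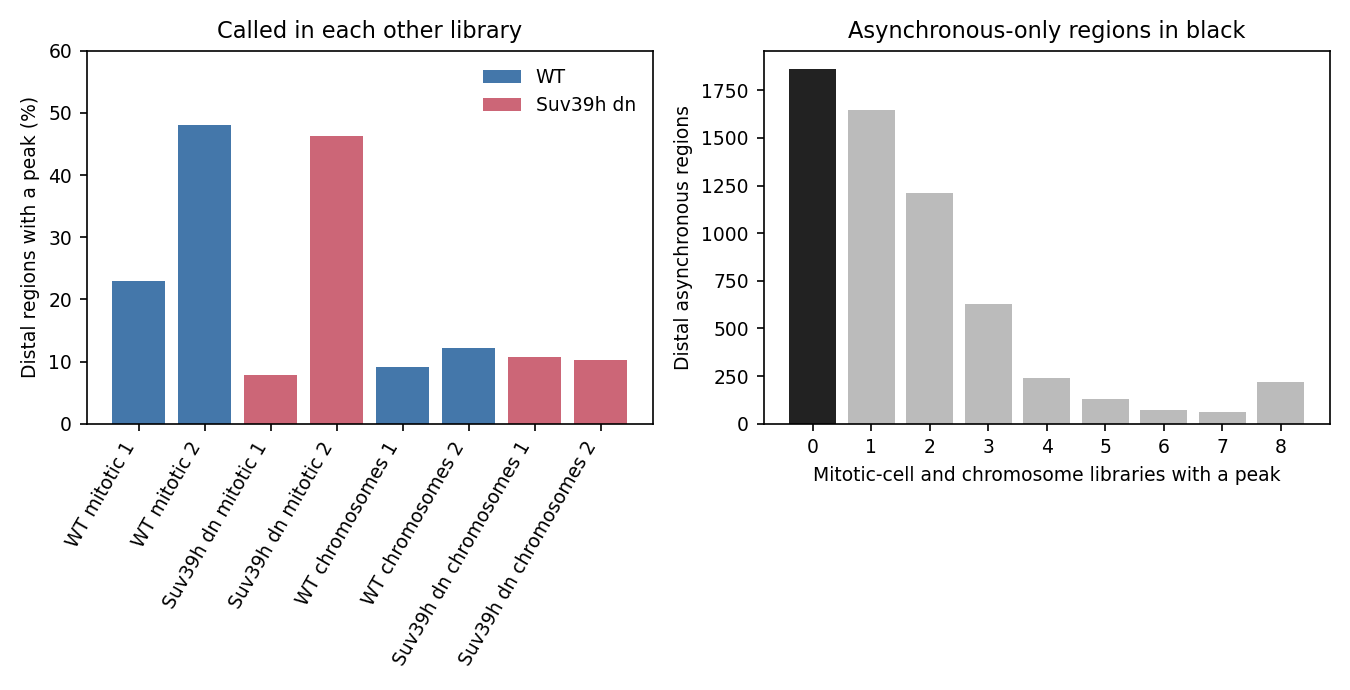
Left, percent of the 6078 distal asynchronous regions with a peak in each mitotic-cell and sorted-chromosome library, WT in blue and Suv39h dn in red; right, number of these regions by how many of the 8 libraries held a peak, with the 1864 asynchronous-only regions in black. The second mitotic-cell library of each genotype holds 48.1% and 46.3%, and the remaining 6 libraries hold 7.91% to 23.0%.

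The lack of a peak is not a measure of closed chromatin, since the lists hold no reads outside of peaks. As a description of what the depth could show, the summit fragments of each region were scaled from each asynchronous library to the background of each mitotic-cell library. The medians came to between 5.91 and 10.2 fragments, and the weakest peaks called in those libraries held 4 fragments. Between 86.9% and 100% of the 1864 regions would have reached 4 fragments with the same ratio of summit to background, although not every position with 4 fragments is called as a peak. For sorted chromosomes the scaled medians were 5.44 to 14.0 fragments, and 99.2% to 100% of the regions reached the 3 or 4 fragments of the weakest peak. Because each region had to be called in all 4 asynchronous libraries, it held at least 3 or 4 summit fragments in each. The shares were thus partly fixed by the choice, and no conclusion on depth is drawn from them.

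The asynchronous-only regions were short, and few of them lay together. Their merged width had a median of 197.5 bp, from 71 to 608 bp, against 253 bp in the distal regions also called in mitotic cells, and the summits of the 4 libraries lay within 100 bp of each other in 79.5% of them. A peak summit fell in an exon of a protein-coding gene in 59 regions (3.17%), in an intron in 746 (40.0%), in another annotated gene in 158 (8.48%) and between genes in 901 (48.3%). Introns held 33.2% and intergenic sequence 54.9% of the regions also called in mitotic cells. The distance to the nearest protein-coding start had a median of 28.6 kb, and 1421 regions (76.2%) lay within 100 kb, against 27.7 kb and 76.2% in the other set. The nearest mitotic-cell peak of any kind lay at a median distance of 35.5 kb, and 45 regions had one within 500 bp. With sorted-chromosome peaks counted as well, the median was 6.28 kb and 167 regions had a peak within 500 bp.

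The share of the distal regions that were asynchronous-only was 23.1% on chromosome 17, 24.2% on chromosome 11 and 24.6% on chromosome 8. It was highest on chromosome X, with 63 of 164 regions or 38.4%. The paper gives all lines as male, and peak height was not compared between chromosomes. Joined over gaps of up to 12.5 kb, 59 asynchronous-only regions (3.17%) fell in 28 stretches of at least 2, against 492 (12.2%) of the regions also called in mitotic cells. The latter set is larger, with 4028 regions against 1864, so a neighbour within a fixed gap is likelier there. Stretches of at least 3 numbered 2. One lay in the intron sequence of Tet2, chr3:133524510-133534420, and held 4 regions, and the other lay beside the lectin receptor genes Klrb1 and Klrb1c, chr6:128734974-128760279, and held 3.

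Motifs were counted in 201-bp windows on the summits, on both strands. The Oct4-Sox2 motif (TTGTNATGC) was in 98 asynchronous-only regions, 5.26% with a 95% Wilson interval of 4.33% to 6.37%, against 6.58% of the distal regions also called in mitotic cells and 0.935% of the windows of all merged regions. The octamer (ATGCAAAT), the recognition sequence of Oct4 and other POU factors, was in 5.53%, 4.59% and 1.53%, and the Sox motif (CATTGTT) in 6.87%, 5.39% and 2.26%. The octamer and the Oct4-Sox2 motif share letters, and 9 asynchronous-only regions held both. The intervals give counting error only and treat regions as independent.

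The CTCF motif, searched by its consensus, was in 177 asynchronous-only regions, 9.50% (8.25% to 10.9%), against 6.60% of the regions also called in mitotic cells and 3.55% of all windows. Its share was lower at higher peaks in both sets. Among asynchronous-only regions it went from 13.04% in the lowest quintile of the fold over 9.48%, 7.53% and 3.98% to 0 of 63 regions in the highest, where the upper limit was 5.75%. Among regions also called in mitotic cells it went from 16.4% over 10.2%, 8.45% and 4.69% to 1.22%. Within each quintile the CTCF share of the asynchronous-only regions was thus the lower of the pair, with overlapping intervals, whereas over all heights it was the higher. The Oct4-Sox2 share was higher at higher peaks in both, from 3.44% over 5.61%, 5.45% and 8.96% to 9.52% in asynchronous-only regions and from 2.51% over 4.33%, 4.29% and 7.09% to 10.5% in the others. In the 4 lower quintiles the asynchronous-only share was thus the higher of the pair and in the highest quintile the lower, with overlapping intervals, whereas over all heights it was the lower.

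**Figure D4:**
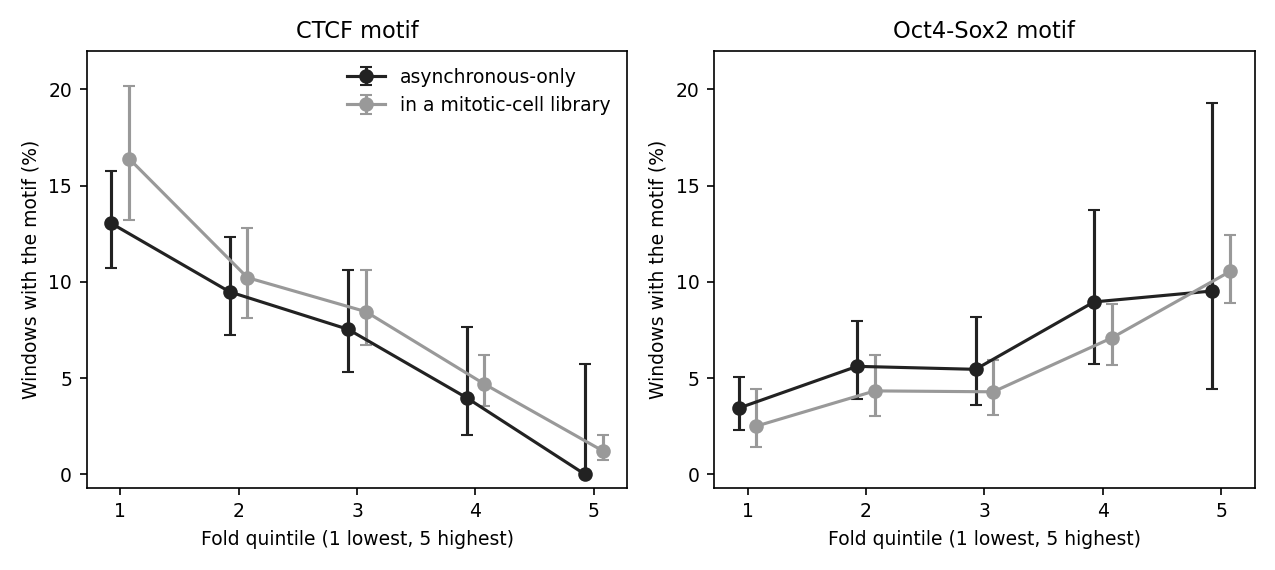
Percent of 201-bp summit windows with a CTCF motif (left) or an Oct4-Sox2 motif (right) in quintiles of the fold of distal asynchronous regions, for asynchronous-only regions in black and regions also called in a mitotic-cell library in grey; bars are 95% Wilson intervals. CTCF goes from 13.04% to 0% and from 16.4% to 1.22%, and Oct4-Sox2 from 3.44% to 9.52% and from 2.51% to 10.5%.

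The other motifs were compared over the same 3 sets. The Esrrb motif (TNAAGGTCA), to which the orphan receptor Esrrb binds, was in 41 asynchronous-only regions, 2.1996% (1.63% to 2.97%), against 1.54% (1.20% to 1.97%) of the regions also called in mitotic cells and 1.28% of all windows. The same letters read backwards without complement (ACTGGAANT) were in 1.18%, 0.546% and 0.742%. The Klf motif (GGGNGTGG) was in 10.2%, 10.9% and 10.3%, the AP-1 motif (TGANTCA) in 9.44%, 8.76% and 4.98%, the Tead motif (ACATTCC) in 5.42%, 4.92% and 2.86% and the Gata motif (AGATAAG) in 1.93%, 1.49% and 1.77%. The Prdm14 motif (GGTCTCTAA) was in 6 asynchronous-only regions, or 0.322% (0.148% to 0.701%). It was in 2 regions also called in mitotic cells, or 0.0497% (0.0136% to 0.181%), and in 0.142% of all windows. These intervals overlapped. Of the motifs common at promoters, YY1 and Nrf1 were rarer in both sets than in all windows, and Ets was not. YY1 (AANATGGCG) was in 0.590% and 0.869% against 3.14% of all windows, Nrf1 (GCGCATGCG) in 0.0536% and 0.174% against 0.251%, and Ets (CCGGAAGT) in 0.912% and 0.894% against 0.736%. The Tfcp2l1 consensus was in 0 of 1864 regions, with an upper limit of 0.206%, in 12 of 4028 and in 0.133% of all windows.

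The median GC content of the windows was 48.8% in asynchronous-only regions and 50.2% in those also called in mitotic cells, with a mean of 2.65 and 3.42 CpG dinucleotides. At least 50% of the window was masked as repeat in 365 asynchronous-only regions (19.6%) and in 26.2% of the others. In the highest quintile of the fold the repeat shares were 22.2% and 36.8%, and in the lowest they were 17.3% and 79 of 439 regions.

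The 10 asynchronous-only regions with the highest fold reached geometric means of 11.2 to 12.5, and 7 of them lay between genes. The highest was 14.5 kb downstream of the start of the sialidase gene Neu4, with folds of 10.3 and 14.8 in WT against 11.7 and 13.9 in Suv39h dn. The second, beside Nr2f1, which encodes the nuclear receptor COUP-TF1, lay 27.2 kb from its start in an intron of Fam172a and had folds of 7.06 and 19.97 in WT against 9.20 and 17.8 in Suv39h dn. One lay 31.0 kb upstream of H2afz, the gene of the histone variant H2A.Z, with folds of 10.6 and 15.9 in WT against 6.34 and 19.4 in Suv39h dn. In each of these the deeper library of a genotype gave the higher fold, and the genotypes overlapped. Of the rest, the regions nearest to Aga and Pabpc4l lay 2330 and 1620.5 kb from their starts. The integrin gene Itgav, the cadherin gene Cdh19 and Emc2 were the nearest genes at 31.3, 186.5 and 35.0 kb. In introns, the nearest were Auts2 at 15.1 kb and the peroxisomal transporter gene Abcd3 at 20.4 kb. Repeat sequence made up 100% of the window nearest to Aga and at most 37.8% of any other among the 10.

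Pluripotency genes had asynchronous-only regions beside them as well as regions called in mitotic cells. Of 15 genes of naive pluripotency, 4 were nearest to an asynchronous-only region within 100 kb, and of 15 core pluripotency genes 2 were, against 1272 of all 21728 protein-coding genes or 5.85%. At these 2 lists 5 of 18 and 3 of 14 distal regions were asynchronous-only, or 27.8% and 21.4%, beside 30.7% for all genes. At 1.92 kb upstream of Pou5f1, which encodes Oct4, a region of chr17:35503921-35504099 had folds of 4.41 and 7.70 in WT against 4.31 and 4.38 in Suv39h dn. It is the region with the Oct4-Sox2 motif shown above. Both Suv39h dn folds lay under both WT folds, the nearest pair at 4.38 and 4.41, on 5 and 12 summit fragments in WT against 5 and 7 in Suv39h dn. The Dppa3 region, 1.62 kb upstream of this germ-line and naive pluripotency gene, chr6:122624557-122624794, held 2 octamers and had folds of 5.44 and 10.8 in WT against 3.67 and 13.4 in Suv39h dn.

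At Esrrb, the region chr12:86501608-86502168 lay 2.24 kb upstream of one of the starts, in an intron of the gene, with folds of 5.00 and 9.51 in WT against 5.36 and 7.69 in Suv39h dn. Its window held the Esrrb motif. Zfp42, also called Rex1, had 2 asynchronous-only regions, the higher of which lay 55.0 kb downstream of the start with a CTCF motif and folds of 5.88 and 8.21 in WT against 6.72 and 10.1 in Suv39h dn, while 3 distal regions beside the gene were also called in mitotic cells. Klf2, a Krüppel-like factor of the naive state, had 1 with folds of 3.76 and 6.25 in WT against 4.85 and 4.77 in Suv39h dn. The proto-oncogene Myc had 2, of which the one 57.4 kb upstream had folds of 5.79 and 6.68 in WT against 5.79 and 12.7 in Suv39h dn. At Dppa3, Esrrb, Zfp42, Klf2 and Myc the deposited folds of the genotypes overlapped, although at Myc they no longer did after each library was centred on its median log2 fold, with Suv39h dn the higher. Sox2, Nanog, Klf4, Klf5, Prdm14, Sall4, Tfcp2l1 and Zfp281 had distal regions within 100 kb of which all were also called in mitotic cells. Farther out, Sox2 was nearest to 1 asynchronous-only region at 145.2 kb, Klf5 to 1 at 238.2 kb, Nr5a2 to 1 at 418.2 kb and Dppa4 to 1 at 517.7 kb.

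**Figure D5:**
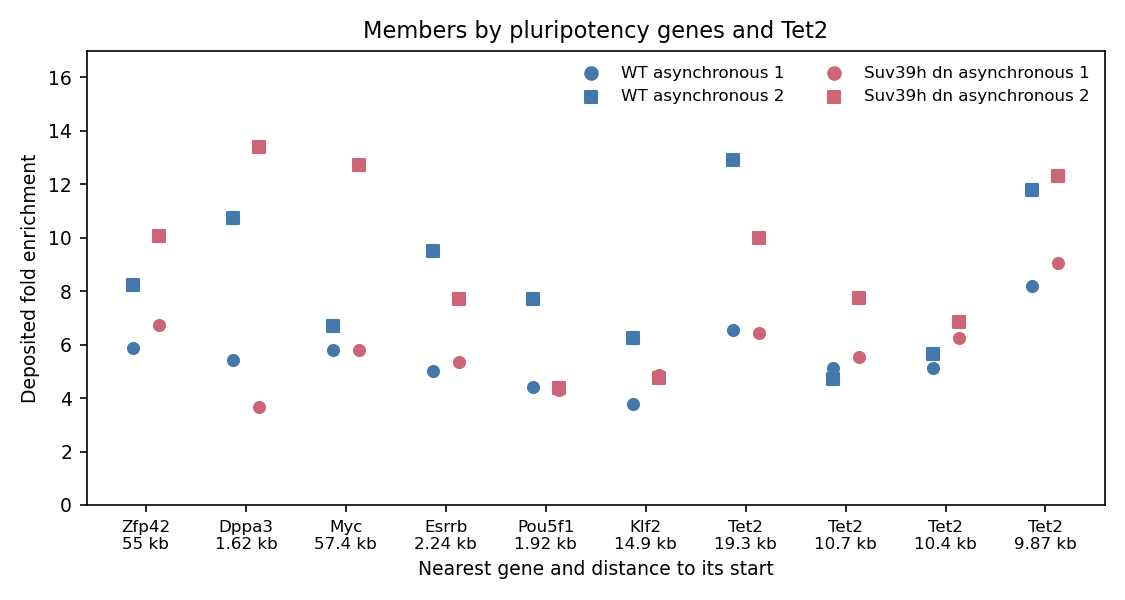
Deposited fold enrichment in the 4 asynchronous libraries (circles, library 1; squares, library 2; blue, WT; red, Suv39h dn) at the highest asynchronous-only region of each pluripotency gene and at all 4 by Tet2, with the distance to the nearest start of the gene. The folds lie between 3.67 by Dppa3 and 13.4 by Dppa3, with the deeper library above the shallower one of the same genotype in most regions.

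Tet2, which encodes a dioxygenase that oxidises 5-methylcytosine, had 4 asynchronous-only regions among 5 distal regions within 100 kb. They lay in an intron, 9.87, 10.4, 10.7 and 19.3 kb downstream of the nearest start. The region chr3:133534165-133534420 was the highest, with folds of 8.20 and 11.8 in WT against 9.06 and 12.3 in Suv39h dn and 12, 24, 12 and 26 summit fragments. The region chr3:133524510-133525010 followed with 6.54 and 12.9 in WT against 6.45 and 9.99 in Suv39h dn. The other two, chr3:133533396-133533555 and chr3:133533737-133533868, had lower folds of 5.13 and 4.70 in WT against 5.53 and 7.74 in Suv39h dn, and of 5.14 and 5.66 against 6.25 and 6.85. In these 2 regions both Suv39h dn libraries lay above both WT libraries on the deposited scale, but the genotypes overlapped in both regions after each library was centred on its median log2 fold. The printed window of chr3:133534165-133534420 holds the reverse complement of the paper's reverse primer for Esrrb ChIP-qPCR at Tet2. The paper, following an earlier study, lists that site as bookmarked by Esrrb in mitosis. By ChIP-qPCR it reports less Esrrb binding in Suv39h dn than in WT mitotic samples at most of the bookmarked sites it tested. The peak lists hold no measure of Esrrb binding, so the lack of a mitotic-cell peak there does not say whether Esrrb was bound. The promoter of Tet2 held a peak in 4 of 4 asynchronous libraries, 1 of 4 mitotic-cell libraries and 3 of 4 sorted-chromosome libraries. Tet3, a paralogue, had 1 asynchronous-only region, and the other 8 genes of DNA methylation and demethylation had none.

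At signalling and lineage genes, regions within 100 kb were counted in the same way, beside the 5.85% of all protein-coding genes that were nearest to one. Among 20 genes of FGF and ERK signalling, the receptor gene Fgfr2, the phosphatase gene Dusp6 and the ETS factor gene Etv5 each had 1, or 15.0% of the genes, and among 20 Wnt genes the ligand gene Wnt5a and the receptor gene Fzd10 each had 1, or 10.0%. Among 15 genes of LIF and JAK-STAT signalling the kinase gene Jak2 had 1, or 6.67%. Of 10 genes of formative and primed pluripotency, Foxp1 had 2 and Otx2 and Sall2 had 1 each, or 30.0% of the genes. Of their 6 distal regions 4, or 66.7%, were asynchronous-only, beside 30.7% of the distal regions of all genes. Neural lineage genes had 1, at Lhx2, of 5 distal regions. Among genes named for their Esrrb ChIP-qPCR sites, Tet2, Esrrb and Zfp42 had the regions described above, and the paper lists their sites as bookmarked. Twistnb, whose site the paper lists as bound only in interphase, had 1 at 1.76 kb upstream of a start. Its folds were 5.15 and 8.34 in WT against 7.68 and 12.3 in Suv39h dn. Only the region by Tet2 was matched to a primer, so those by Esrrb, Zfp42 and Twistnb are not shown to be the tested sites. Capn2, Jam2, Tbx3 and Mgat3 were nearest to none. None was found within 100 kb at 20 genes of Nodal, activin and BMP signalling, which had 9 distal regions, at 15 mesoderm and endoderm factors or at 15 housekeeping genes, which had 3 each. Beyond that distance Inhbb, which encodes an activin subunit, had 1 at 116.4 kb and the endoderm factor gene Foxa2 had 1 at 149.5 kb. Sox3, of the formative and primed genes, had 1 at 120.7 kb.

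Over the genome 1583 genes were nearest to an asynchronous-only region, 1354 of them to 1 and 187 to 2. Tenm3, a teneurin of neural wiring, had the most with 5, between 33.1 and 350.9 kb from its starts. Auts2, Camk1g, Got2, Mpped2, Plcb4, Sox5, Tenm4 and Tet2 had 4 each. Of these 9 genes Tet2 and Plcb4, a phospholipase C gene, had all of theirs within 100 kb. The promoters of the 1272 genes that had one within 100 kb held a peak in at least 1 asynchronous library in 77.9%, in a mitotic-cell library in 47.1% and in a sorted-chromosome library in 79.2%, against 61.5%, 37.5% and 65.7% of all protein-coding genes. For the 2460 genes beside distal regions also called in mitotic cells the shares were 74.3%, 44.3% and 76.9%.

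The marker promoters gave a coarse check of the cells. Of 10 ESC markers 9 held a promoter peak in at least 1 asynchronous library, and Sox2, Zfp42 and Esrrb did in all 4. Tdgf1 held none in an asynchronous library but had one in 1 mitotic-cell library. Promoter peaks were also called in at least 1 asynchronous library at 2 of 8 fibroblast, 4 of 5 primitive endoderm and 4 of 5 trophoblast markers, among them Elf5 in all 4. No fibroblast or primitive endoderm marker was called in all 4.

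The genotypes were then compared within asynchronous ESCs, a contrast that the choice of regions did not use. The deposited fold was put on a log2 scale, centred on the median of each library and tested with limma over the 10427 regions that were called in all 4 asynchronous libraries. A peak was required in both genotypes, so a region lost from 1 genotype cannot be among them. No region passed an adjusted p of 0.05 (limma with Benjamini-Hochberg adjustment), so that the background was 0% and 0 of the 1864 asynchronous-only regions were called. At an unadjusted p under 0.05, 52 asynchronous-only regions (2.79%) were higher in Suv39h dn and 32 (1.72%) were lower, beside 1.46% and 1.49% of all regions tested. Both Suv39h dn libraries lay above both WT libraries in 314 asynchronous-only regions (16.8%), beside 14.2% of all regions, and below both in 234 (12.6%), beside 15.3%.

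The median of the 1864 regions on this centred scale was −0.24 and −0.37 in WT, a mean of −0.31 ± 0.092 (SD, n = 2), and −0.23 and −0.28 in Suv39h dn, a mean of −0.25 ± 0.035 (SD, n = 2). The values of the genotypes overlapped, and the difference of Suv39h dn minus WT was 0.054 on the log2 scale (exact two-sided permutation test over 6 arrangements, p = 0.667, where the smallest possible p is 0.333). It was −0.011 without the second WT library. Asynchronous-only regions with at least 50% repeat had a median difference of 0.093 and those with no repeat of 0.039, with both Suv39h dn libraries above both WT libraries in 19.5% of 365 and 16.5% of 647 regions and below both in 12.3% and 13.4%. The other distal regions had median differences of −0.0037 with at least 50% repeat and −0.011 with none, and Suv39h dn lay above in 14.8% of 1118 and 16.5% of 1347 regions and below in 16.1% and 14.6%. These classes were chosen after their values were seen and were not tested.

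The largest genotype differences were named without a call. The highest in Suv39h dn lay 804.0 kb upstream of Vwc2, chr11:10310010-10310223, with folds of 4.35 and 4.59 in WT against 10.2 and 11.98 in Suv39h dn, a difference of 1.23 ± 0.33 (SE) on the log2 scale with an adjusted p of 1.00 (limma). The next, chrX:146012034-146012253, was nearest to Amot, which encodes angiomotin of the Hippo pathway, but lay 506.9 kb upstream of its start. It had folds of 3.48 and 5.36 in WT against 8.53 and 12.6 in Suv39h dn. Repeat sequence made up 92.0% and 91.5% of these 2 windows. A region nearest to Mettl4, chr17:94269855-94270036, lay 479.9 kb downstream of that gene's start, and its window held no repeat. Its folds were 3.48 and 4.59 in WT against 5.71 and 15.8 in Suv39h dn. In the other direction, a region 9.88 kb upstream of the glycosyltransferase gene Alg8, chr7:97361637-97361728, had 6.04 and 8.42 in WT against 3.36 and 3.83 in Suv39h dn, a difference of −1.06 ± 0.32 (SE) with an adjusted p of 1.00 (limma). Regions nearest to Bloc1s4, at 10.7 kb, and Bckdhb, at 133.1 kb, followed. Their folds were 7.19 and 9.17 in WT against 3.40 and 5.37 in Suv39h dn, and 6.76 and 15.3 against 3.41 and 8.73. Repeat sequence made up 77.1%, 12.4% and 0% of the windows nearest to Alg8, Bloc1s4 and Bckdhb. All of these regions, in both directions, rest on 3 to 22 summit fragments a library.

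Each genotype alone gave more regions under the same rule. The WT libraries, with a peak in both asynchronous and none in the 4 other WT libraries, gave 6027 distal regions and the Suv39h dn libraries 8727. The 1864 regions are the overlap, 30.9% of the WT list and 21.4% of the Suv39h dn list, and the asynchronous libraries held 22295 and 56760 peaks in WT against 24991 and 80126 in Suv39h dn.

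Peaks beside the asynchronous-only regions were compared between genotypes in all 3 preparations. The share of a library's peaks that overlapped none of the regions but had a summit within 10 kb of one was 2.196% and 2.27% in WT against 1.93% and 2.21% in Suv39h dn before arrest. Mitotic cells gave 1.89% and 2.10% against 1.21% and 2.09%, and sorted chromosomes 1.69% and 1.81% against 1.66% and 1.80%, while the windows of 10 kb around the regions cover 1.41% of the genome. In each preparation the lower Suv39h dn library lay under the lower WT library and the higher under the higher, but the 2 genotypes overlapped. The first Suv39h dn mitotic library was the lowest and rests on 21 such peaks. The mean log2 difference of Suv39h dn minus WT over the preparations was −0.15, with −0.11, −0.32 and −0.020 in asynchronous ESCs, mitotic cells and sorted chromosomes (exact two-sided permutation test within preparations over 216 arrangements, p = 0.250, where the smallest possible p is 0.00926). With the replicate number as a block, which the labels give without saying that it pairs the libraries, p was 0.0312, the smallest that these 64 arrangements can give (exact permutation test). Without the first Suv39h dn mitotic library it was −0.022, and without the second one −0.28 (p = 0.0463, exact permutation test).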

How the data were processed

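ATAC-seq peaks of 12 libraries were used, with groups from the sample titles. The authors trimmed paired-end reads (Trim Galore 0.4.4), aligned them to mm10 with Bowtie2 2.2.9, removed duplicate and mitochondrial reads, shifted and kept fragments under 100 bp and called peaks per library with MACS2. The MACS2 version and threshold are not given in the sources used here. The deposited lists give a fold enrichment (a ratio of pileup to background), the −log10 of the p-value and of the q-value, a score made from the q-value, and a summit. The lists hold no depth; summit fragments and background were recovered from fold and p-value to within 0.001 in all peaks with a −log10 p under 60. Short fragments and per-library calling tie each list to its depth.

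Merged regions, GENCODE starts and GRCm38 sequence (the assembly mm10 names) were handled with Python 3.11.15, and regions were tested with limma 3.58.1. Other tests were exact permutations over libraries. The authors' voom-limma analysis of read counts needs counts and was not repeated. The regions, gene lists and motifs were chosen with earlier results of these data known. Named regions were the 10 with the highest fold, the highest beside each pluripotency gene and each gene tested by Esrrb ChIP-qPCR in the study, the 3 largest genotype differences each way, and the genes with most regions. Alternatives were stricter q-values, other overlaps, distances, windows and scalings, a replicate block and leaving out each library. Peaks on other chromosomes were not used.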

Additional observations from a re-analysis of the deposited data

How the results depend on the processing

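The number of asynchronous-only regions changed with the threshold and with the libraries used. It was 1864 as reported, 611 with a q-value at or under 1e-05 in all libraries, 191 with that threshold in the asynchronous libraries alone, 1069 with at least 50% of a region covered, 4965 when only sorted chromosomes had to lack a peak and, in an alternative added after seeing the data, 4047 without both mitotic-cell libraries numbered 2. It ran from 1885 to 4850 when 1 library was left out, and it passed 1.5 times 1864 without the first WT (4850) and the first Suv39h dn (4214) asynchronous library. The other 4 planned rules gave 1639 to 2050.

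The count of regions with a genotype difference was 0 under quantile normalization, no centring, a filter on the mean −log10 q, summit fragments in place of fold (added after seeing the data) and without any 1 library. With the replicate number as a block it was 1, outside of the asynchronous-only regions. The labels give the libraries no more than a shared number, and the deviations of the libraries numbered 1 correlated over regions at 0.26. The members' median difference ran from −0.011 (without the second WT library) to 0.12 without 1 library, was 0.034 to 0.13 under the other settings, and kept its value of 0.054 in the block. The share of peaks beside the regions ran from −0.28 (without the second Suv39h dn mitotic library, p = 0.0463, exact permutation test) to −0.022 (without the first) when 1 library was left out. Permuted within replicate numbers, its −0.15 gave p = 0.0312 (exact permutation test over 64 arrangements), the smallest p these can give. The motif shares changed with the window: at 50 bp to each side of the summit and at 5 times that distance the Oct4-Sox2 share was 3.54% and 7.08%, Klf 5.42% and 18.9%, AP-1 5.31% and 16.0%, and Esrrb 1.29% and 4.40%, while CTCF was 8.69% and 9.76%. In the 191 regions with a q-value at or under 1e-05, CTCF was 3.14% against 9.50% in all and Oct4-Sox2 6.81% against 5.26%.

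Few fragments per summit and 2 libraries per group limit these comparisons.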
